A study of Mus musculus with 4 samples.

Results

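This report describes 1524 genomic sites in mouse neural stem cells (NSCs) at which binding sites of Carm1, Jmjd1c and Med1 coincided inside an enhancer region. They are the Carm1 sites that overlapped both a Jmjd1c site and a Med1 site by at least 1 bp and whose midpoint fell in a region of the authors' enhancer table. They made up 17.4% of the 8759 Carm1 sites. Of these three-factor enhancer sites, 402 lay in super enhancers (SEs) and 1122 in typical enhancers. They were chosen by the measured site positions and by the authors' enhancer regions, so their overlap and their place in enhancers are given as descriptions.

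Chromatin came from untreated NS-5 cells, an NSC line derived from 46C mouse embryonic stem cells and grown with EGF and FGF. Cells were fixed with disuccinimidyl glutarate and formaldehyde, and the chromatin was precipitated with antibodies against Med1, Jmjd1c or Carm1, or with rabbit IgG as control. All 4 samples come from this line in this state, with 1 sample per antibody, which may hold merged replicates, so no value has a replicate error and no test between samples was possible. The intervals below are 95% intervals that cover the number of sites or regions only, since no source used here gives the read depth. Expression was not part of the files, so the identity of the cells could not be checked on marker transcripts.

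Mediator is a multisubunit complex that carries signals from transcription factors bound at enhancers to RNA polymerase II at promoters, and Med1 is one of its subunits. Carm1 is an arginine methyltransferase that acts as a coactivator, with histone H3 among its substrates. Jmjd1c belongs to the JmjC family of histone demethylases, which remove methyl groups from histone lysines. SEs are clusters of enhancers with an exceptionally high load of Mediator and are often found near genes of cell identity.

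Windows reaching 100 bp to each side of the Carm1 midpoint are shown for 10 three-factor enhancer sites, to let the loci named below be read as sequence. Each is the site with the closest midpoints of the 3 factors in the best-ranked enhancer region of its locus. All are plus-strand sequences of build mm9 (reference genome NCBIM37). Capitals mark the motif letters that are counted below: CAGCTG or CAGGTG (the E-box with a GC core, bound by basic helix-loop-helix proteins), TTGGCA (the 5′ part of the nuclear factor I palindrome, called the NFI site here) and ACAAAG or ACAATG (the SOX motif), each on either strand.
Olig1, chr16:91314727-91314927: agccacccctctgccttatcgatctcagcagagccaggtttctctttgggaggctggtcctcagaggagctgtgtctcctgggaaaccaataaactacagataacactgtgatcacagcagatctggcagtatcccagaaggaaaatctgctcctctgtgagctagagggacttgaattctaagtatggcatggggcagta
Klf15, chr6:90421157-90421357: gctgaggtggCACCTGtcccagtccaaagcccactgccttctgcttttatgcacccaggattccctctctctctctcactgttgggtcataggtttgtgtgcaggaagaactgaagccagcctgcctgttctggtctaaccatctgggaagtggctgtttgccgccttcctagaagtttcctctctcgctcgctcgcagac
Tulp3, chr6:128299825-128300025: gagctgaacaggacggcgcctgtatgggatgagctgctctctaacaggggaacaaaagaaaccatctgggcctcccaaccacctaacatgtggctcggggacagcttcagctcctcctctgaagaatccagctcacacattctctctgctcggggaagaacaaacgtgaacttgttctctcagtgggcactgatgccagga
Myc, chr15:61924383-61924583: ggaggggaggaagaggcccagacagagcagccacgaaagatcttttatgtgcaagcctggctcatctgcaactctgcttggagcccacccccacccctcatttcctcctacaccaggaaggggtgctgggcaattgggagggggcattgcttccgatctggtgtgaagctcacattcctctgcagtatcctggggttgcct
Rad51c, chr11:87284848-87285048: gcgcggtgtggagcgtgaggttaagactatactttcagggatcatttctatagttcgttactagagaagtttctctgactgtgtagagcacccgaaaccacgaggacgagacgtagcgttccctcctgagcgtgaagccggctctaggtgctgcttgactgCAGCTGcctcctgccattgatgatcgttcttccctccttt
Slc1a3, chr15:8609678-8609878: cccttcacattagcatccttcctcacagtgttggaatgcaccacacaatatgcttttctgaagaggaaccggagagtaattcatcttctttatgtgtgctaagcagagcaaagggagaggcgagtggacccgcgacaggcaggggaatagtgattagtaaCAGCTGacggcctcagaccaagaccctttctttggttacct
Ptprz1, chr6:22744470-22744670: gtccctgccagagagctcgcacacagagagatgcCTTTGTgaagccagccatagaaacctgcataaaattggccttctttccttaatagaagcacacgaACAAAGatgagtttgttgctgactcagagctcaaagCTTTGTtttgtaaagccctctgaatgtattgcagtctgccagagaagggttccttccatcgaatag
Egfr, chr11:16732059-16732259: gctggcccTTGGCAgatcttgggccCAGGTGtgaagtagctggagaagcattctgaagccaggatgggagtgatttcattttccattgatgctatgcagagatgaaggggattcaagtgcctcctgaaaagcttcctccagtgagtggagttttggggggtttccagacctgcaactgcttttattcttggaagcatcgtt
Etv5, chr16:22527766-22527966: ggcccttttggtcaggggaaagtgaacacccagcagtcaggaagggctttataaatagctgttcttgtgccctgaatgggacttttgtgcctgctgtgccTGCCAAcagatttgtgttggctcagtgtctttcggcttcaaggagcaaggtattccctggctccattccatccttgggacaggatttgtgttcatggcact
Nfia, chr4:97328358-97328558: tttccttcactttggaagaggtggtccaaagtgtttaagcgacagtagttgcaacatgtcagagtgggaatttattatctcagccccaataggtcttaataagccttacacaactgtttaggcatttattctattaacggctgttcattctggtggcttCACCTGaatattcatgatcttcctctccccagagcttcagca

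The windows differed in motif content. The site upstream of Ptprz1, a receptor tyrosine phosphatase of radial glia, held 3 SOX motifs and neither of the other 2 motifs. The intronic site of Egfr, the EGF receptor gene, held 1 NFI site and 1 E-box. The windows of Klf15, Rad51c, Slc1a3 and Nfia each held 1 E-box only, and the window of Etv5, an ETS factor gene downstream of FGF signalling, held 1 NFI site only. None of the 3 motifs occurred in the windows of Olig1, Tulp3 and Myc, which says only that these letters were not in these windows. By the protein-coding genes of the GENCODE vM1 annotation, the windows of Klf15, Tulp3, Slc1a3 and Egfr lay in introns of these genes. Those named for Rad51c, Etv5 and Nfia lay in introns of a neighbouring gene (Tex14, Dgkg and E130114P18Rik), and those of Olig1, Myc and Ptprz1 were intergenic.

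The 3 factors were closely stacked. The median distance between the Carm1 and the Jmjd1c midpoint was 66 bp (quartiles 31 and 119 bp), and the largest was 555 bp. Since the rule asks for overlap, this closeness is partly fixed by it. Three-factor sites outside the enhancer regions, described below, had medians of 61 bp (distal) and 78 bp (promoter). In 1396 of 1524 sites (91.6%, interval 90.1 to 92.9%) both midpoints lay within 200 bp. Med1 sites were far wider, with a median of 1816.5 bp against 334.5 bp for Carm1 and 407 bp for Jmjd1c, and 1520 of the 1524 Carm1 sites lay wholly inside their Med1 site. Within it, 83.3% (interval 81.3 to 85.1%) had their midpoint in the central part, between 1/3 and 2/3 of its length. The Jmjd1c site and the Med1 site overlapped each other in every case, which follows wherever the Carm1 site lies wholly inside its Med1 site.

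Stacking was looser around Med1 in SEs. The median distance from the Carm1 to the Med1 midpoint was 221.5 bp in SEs and 114 bp in typical enhancers, while that from Carm1 to Jmjd1c was 69 bp and 64 bp. All 3 midpoints lay within 200 bp of each other in 35.1% of the sites in SEs (interval 30.6 to 39.9%) and in 61.5% of those in typical enhancers (58.6 to 64.3%). Med1 sites at these positions had a median width of 2505 bp in SEs and 1660 bp in typical enhancers. Regions were ranked by Med1 less IgG signal, so the Med1 width is not independent of the division into SEs and typical enhancers, and a wider site allows a larger distance.

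**Figure D1:**
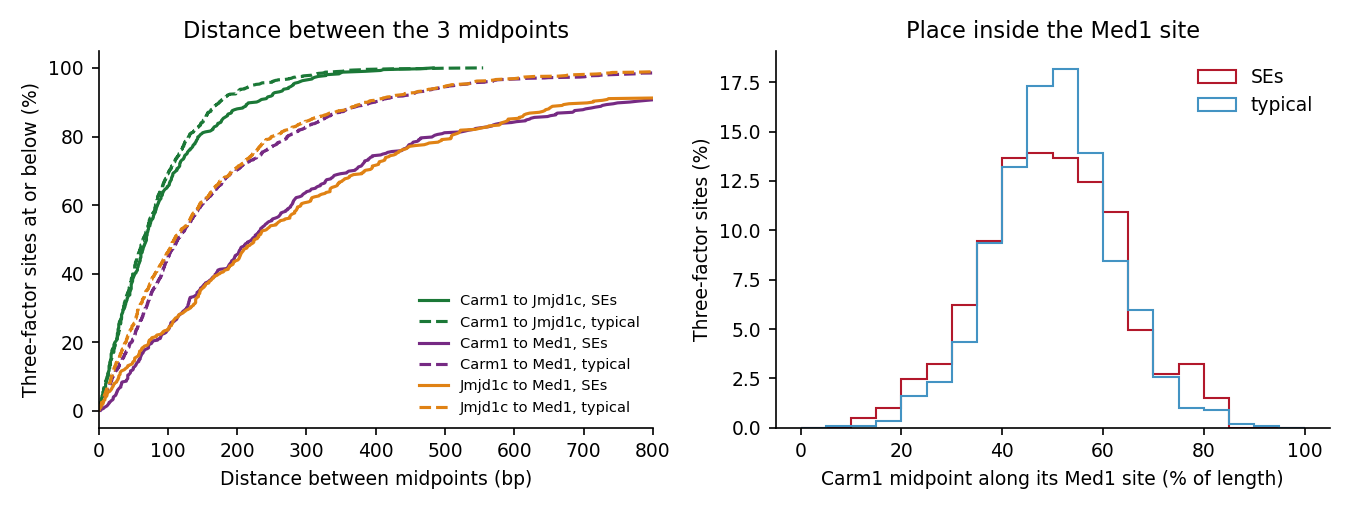
Left, cumulative share of three-factor enhancer sites (%) by the distance in bp between midpoints, cut at 800 bp, for the 402 sites in SEs (solid) and the 1122 in typical enhancers (dashed). Right, place of the Carm1 midpoint along its Med1 site, in % of the length of that site. Carm1 and Jmjd1c midpoints lay close together in both kinds of enhancer (medians 69 and 64 bp), while both lay farther from the Med1 midpoint in SEs than in typical enhancers.

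Carm1 sites were wider where all 3 factors met. Their median width was 369 bp in SEs and 325 bp in typical enhancers, against 306 bp at the 477 three-factor distal sites outside the enhancer regions (over 1.5 kb from the transcription start site, TSS, of any protein-coding transcript) and 293 bp at the 431 three-factor promoter sites outside them. It was 279 bp at the 1457 Carm1 sites that lay in enhancer regions but lacked Jmjd1c or Med1. The narrowest width in the Carm1 list, 236 bp, was found for 10.8% of the three-factor enhancer sites (interval 9.3 to 12.4%) and for 32.9% of all Carm1 sites (31.9 to 33.9%). A wider site has more chance to overlap another, so the width is not independent of the rule.

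At the limits of the rule, the smallest overlap between Carm1 and Jmjd1c was 4 bp, and 16 sites overlapped by less than 50 bp. Among the 719 Carm1 sites of enhancer regions with Med1 but without Jmjd1c, the closest lay 1 bp from a Jmjd1c site and 41 lay within 200 bp. Of the 384 with Jmjd1c but without Med1, 1 lay within 200 bp of a Med1 site. The midpoint of 14 three-factor enhancer sites lay within 100 bp of a region edge, and 70 three-factor sites outside lay within 1 kb of a region.

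The 5 most tightly stacked sites were spread over enhancers of very different rank. The smallest sum of the distances between the 3 midpoints, 14 bp, belonged to the site shown above for Myc (chr15:61924276-61924690), which lay 107.5 kb downstream of the TSS of this growth regulator in the SE of rank 29. Next came an intronic site of Glt25d2 (16 bp, rank 2368), a site 12.8 kb upstream of Wsb1 (16 bp, rank 1603), an intronic site of Grip1 (18 bp, rank 3290) and a site 22.5 kb upstream of Prdx6 (22 bp, rank 5686). The 5 with the largest sums, from 4230 to 4846 bp, all lay in SEs of rank 1 to 114 and in Med1 sites of 5872 to 11725 bp, while their Carm1 and Jmjd1c midpoints were 27 to 301 bp apart. Over all sites the median sum was 360 bp.

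Of the 8089 enhancer regions, 1371 (16.9%, interval 16.1 to 17.8%) held a three-factor site. For each region the authors summed a read density scaled to mapped reads, for Med1 and for IgG, and their table marks the top of its ranking as SEs. The ranks followed Med1 less IgG with negative values set to 0, by which 0 of the 8088 neighbouring pairs of regions were out of order, and not Med1 alone, by which 4039 were. The study describes a ranking by Med1 signal, and gives the same number of SEs but more typical enhancers than are used here. The share was 64.3% of the 445 SEs (59.7 to 68.6%) and 14.2% of the 7644 typical enhancers (13.4 to 15.0%). It fell along the ranking, from 72.0% in ranks 1 to 100 and 62.0% in ranks 101 to 445 to 39.3% in ranks 1001 to 2000 and 1.66% in ranks 4001 to 8089. Higher ranks hold longer regions, and per length the picture differed: 51.9 sites per Mb of SE against 46.6 per Mb of typical enhancer. The highest density, 69.2 per Mb, was found in ranks 1001 to 2000, above the 51.0 per Mb of ranks 1 to 100.

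**Figure D2:**
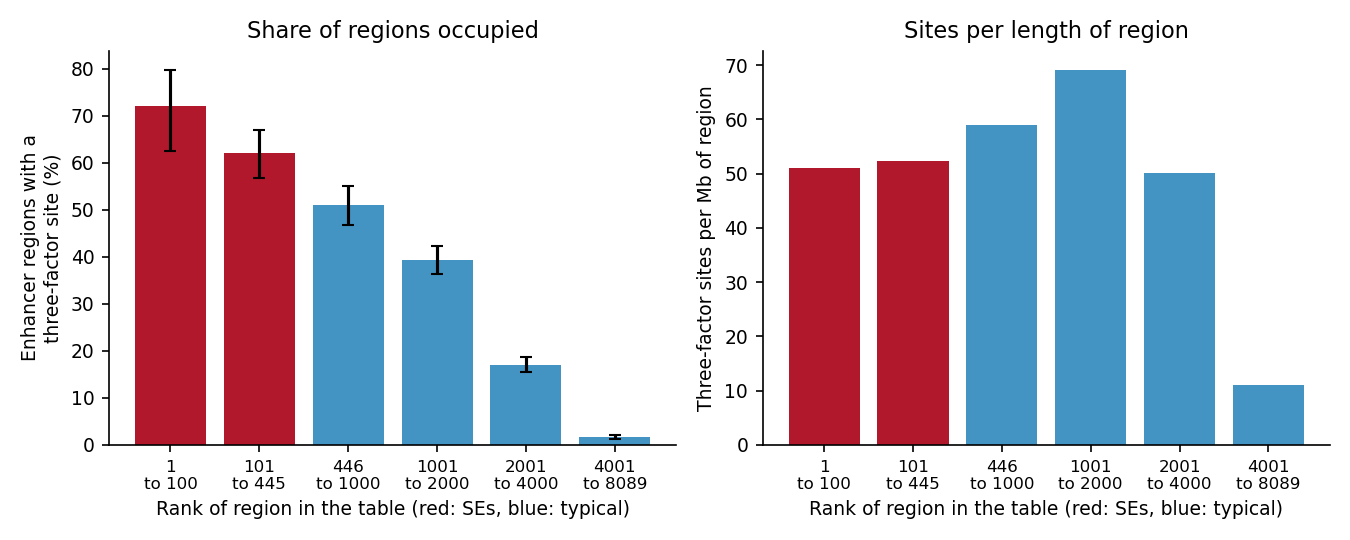
Left, share of enhancer regions (%) with at least 1 three-factor site in 6 bins of the rank by Med1 less IgG, with 95% Wilson intervals as bars. Right, number of three-factor sites per Mb of region in the same bins (SEs red, typical enhancers blue). The share fell with rank from 72.0% to 1.66%, while the number per Mb peaked at 69.2 in ranks 1001 to 2000.

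Most occupied regions held 1 site. Of the 1371 regions, 1247 held 1, 102 held 2, 18 held 3, 3 held 4 and 1 held 7. In SEs 30.8% of the 286 occupied regions (interval 25.7 to 36.3%) held 2 or more, against 3.32% of 1085 in typical enhancers (2.41 to 4.56%). Neighbouring sites of one region lay a median of 8860 bp apart in SEs and 709 bp apart in typical enhancers, from 116 and 37 pairs. The length of a region limits this spacing, and occupied regions had a median length of 15442.5 bp in SEs and 2971 bp in typical enhancers. Some sites share their partners: 93 of the 1524 fell in 46 Med1 sites with 2 or 3 Carm1 sites each, and 30 Jmjd1c sites were counted with 2 Carm1 sites.

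Among Carm1 sites in enhancer regions, those with both partners made up 67.8% in SEs (402 of 593) and 47.0% in typical enhancers (1122 of 2388), a difference of 20.8 percentage points (Newcombe interval 16.5 to 24.95). Outside the regions the share was 15.7% (908 of 5778). Carm1 sites with Med1 but without Jmjd1c took 27.7% in SEs and 23.2% in typical enhancers. Those with Jmjd1c but without Med1 took 2.19% and 15.5%. Regions were ranked by Med1 less IgG, so these shares are not independent of the ranking.

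The region with most three-factor sites was the SE of rank 6 (chr12:88110704-88167882), which held 7 of them in 57.2 kb, all outside protein-coding genes. Protein-coding genes with a TSS within 100 kb of it were 6430527G18Rik, Angel1, Gm6772 and Vash1, an angiogenesis inhibitor gene. It held 12 Med1, 8 Jmjd1c and 8 Carm1 sites. The 7 sites lay 0.714, 12.1, 31.6, 46.7, 47.1, 54.6 and 55.3 kb from its start, so 4 of them formed 2 close pairs, each within one Med1 site.

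The SE of rank 1 (chr11:101502299-101519975), near Arl4d, held 4 three-factor sites in 17.7 kb. Of these, 3 lay in one Med1 site of 6875 bp. Its Med1 signal per kb was 2904, against a median of 499 in occupied SEs, and its IgG signal per kb was 315 against a median of 126. The SE of rank 8 (chr4:97268244-97333957) held 4 sites within introns of E130114P18Rik, over 100 kb upstream of Nfia, a nuclear factor I gene that is active in glial development. The SE of rank 64 (chr15:59002559-59031582) held 4 sites between Gm5045 and its neighbours, and that of rank 9 (chr1:72272346-72302938), near Mreg, held 3. In all, 18 regions held 3 sites, among them the SE of rank 23 downstream of Olig1 and the one of rank 29 downstream of Myc.

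**Figure D3:**
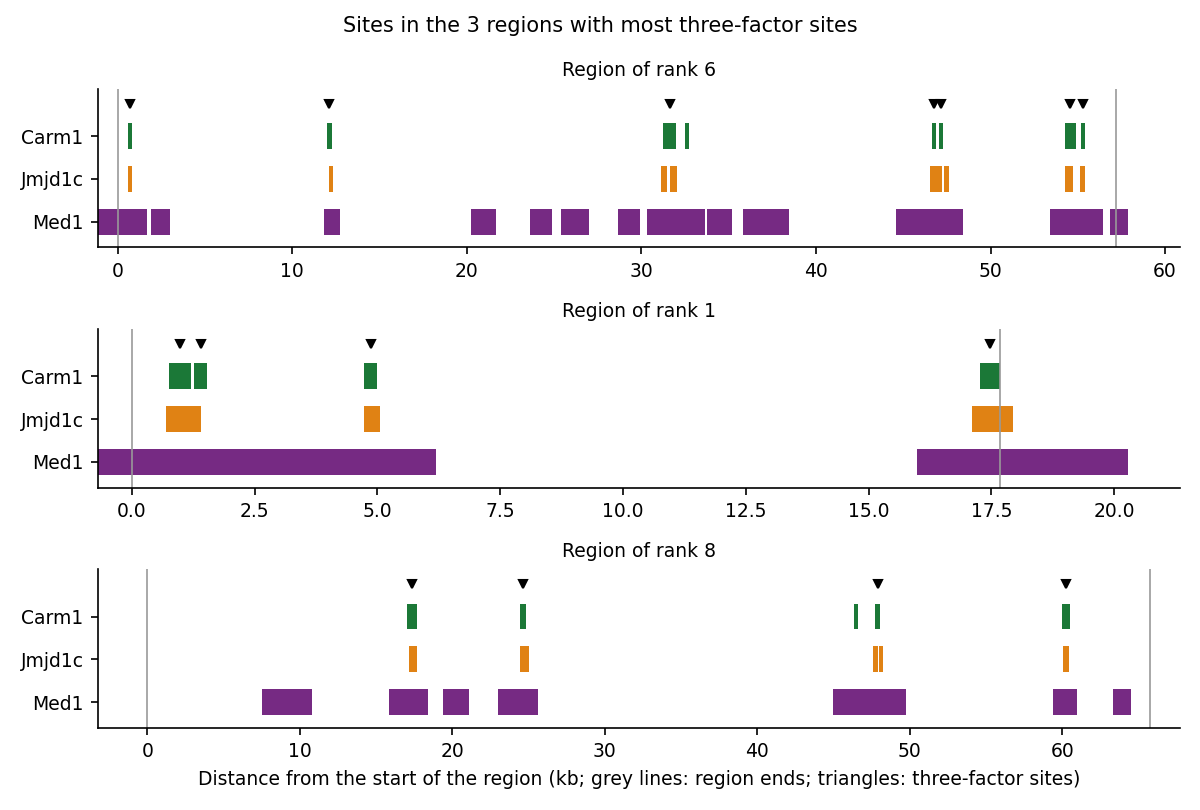
Sites of Med1, Jmjd1c and Carm1 (bars) in the regions of rank 6, 1 and 8, by the distance in kb from the start of the region, with grey lines at both region ends and a triangle above each three-factor site. The 7, 4 and 4 three-factor sites sat on Med1 sites spread along the regions.

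IgG signal, the control, also differed between regions with and without these sites. Occupied typical enhancers had a median IgG signal of 158.9 per kb and empty ones of 127.3, while occupied and empty SEs had 126 and 132. IgG is subtracted in the ranking that divides SEs from typical enhancers, so IgG is not independent of this division. The corresponding Med1 medians were 580.5 and 334 per kb in typical enhancers, and 499 in both groups of SEs. On chromosomes 11 and 15 the regions had median IgG signals of 209.5 and 173.2 per kb, against 115.5 to 133.1 on the other autosomes. On these 2 chromosomes 25.6% of the regions (interval 22.8 to 28.6%) held a three-factor site, against 16.1% on the other autosomes (15.2 to 16.9%). The part of IgG in this difference was not tested.

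Three-factor enhancer sites were distal, as were the other Carm1 sites of enhancer regions. By the protein-coding genes of GENCODE vM1, 52.1% were intergenic (interval 49.6 to 54.6%), 44.4% intronic (41.9 to 46.9%), 1.18% in a coding exon and 1.71% in a UTR exon. Only 63 sites (4.13%, interval 3.24 to 5.25%) lay within 1.5 kb of a TSS, against 25.8% of all Carm1 sites. For Carm1 sites of enhancer regions without Jmjd1c or Med1 this share was 4.53%, with 51.3% intergenic and 46.2% intronic. When they joined enhancers, the authors excluded the 1 kb before and after each TSS, which limits how many sites can lie there. Median distance to the nearest TSS was 32.1 kb in SEs and 36.1 kb in typical enhancers, and 314 sites (20.6%) were over 100 kb from any. Base composition of windows of this size was 51.2% GC in the median, 53.2% in SEs and 50.7% in typical enhancers, against 45.8% in windows 1 kb to either side.

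SOX, E-box and NFI letters were the most frequent of 20 motifs counted and were centred on the sites. All were counted within 100 bp of the Carm1 midpoint, SOX and the GC-core E-box with 2 letter strings each, and the intervals are not adjusted for this number. SOX motifs were present in 687 of 1524 windows (45.1%, interval 42.6 to 47.6%), GC-core E-boxes in 604 (39.6%, 37.2 to 42.1%) and NFI sites in 441 (28.9%, 26.7 to 31.3%). In the 3048 windows 1 kb to either side the shares were 24.8%, 22.7% and 11.8%. Among windows of the same length at the TSS of 22347 protein-coding genes they were 16.2%, 24.5% and 7.79%. The differences from the flanking windows were 20.3 points for SOX (Newcombe interval 17.4 to 23.2), 17.0 for the E-box (14.1 to 19.8) and 17.1 for NFI (14.6 to 19.7). Each flank belongs to a site, and all intervals against flanks leave out this pairing.

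Against the flanks, 11 of the 20 motifs were more frequent and 2 less frequent with an interval that left out 0. Besides the 3 above, the RFX motif (GTTGCCA) was found in 6.10% against 2.03%, the octamer of POU factors (ATGCAAAT) in 2.76% against 1.12%, and the AP-1 motif (TGANTCA) in 7.94% against 5.87%. The E-box CAGATG was found in 22.2% against 16.1%, and the TEAD motif (GGAATG) in 13.2% against 10.9%. The GC box (GGGCGG) was found in 7.41% against 3.28%, the CTCF core (AGGTGGC or AGGGGGC) in 8.40% against 5.41%, and the full NFI palindrome in 0.328% against 0. Less frequent at the sites were CATATG, another E-box (2.56% against 5.18%), and CCAAT, the box bound by NFY (20.9% against 24.6%). TTGGCA shares letters with the reverse strand of GTTGCCA and can overlap the reverse strand of CCAAT, so these counts are not independent. The sites also had a higher GC content than the flanks, and the part of base composition in these differences was not tested.

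**Figure D4:**
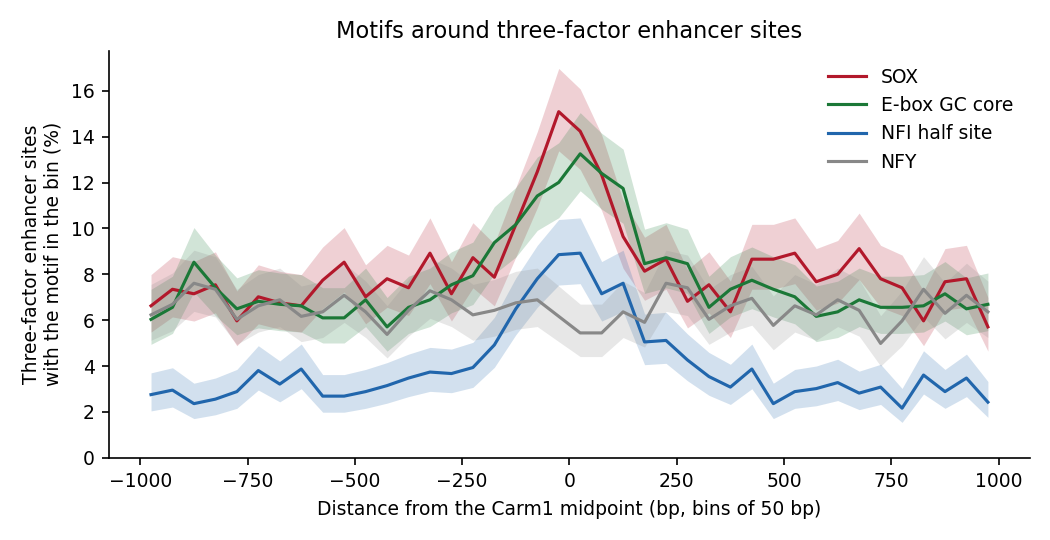
Share of the 1524 three-factor enhancer sites (%) with a motif in each bin of 50 bp, by the distance in bp from the Carm1 midpoint, with 95% Wilson bands. SOX, E-box and NFI shares peaked in the central bins, at 15.1%, 13.3% and 8.92%, while NFY was at 5.45% in the bin just after the midpoint.

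Windows with exactly 1 of the 3 motifs were the largest group at the sites. Of the windows, 45.9% held exactly 1 of the 3, 27.8% held 2, 4.07% held all 3 and 22.2% none, against 39.0%, 8.92%, 0.820% and 51.3% of the flanking windows. Among windows with any of the 3, SOX alone was the most frequent state with 20.5%, followed by E-box alone with 15.4% and E-box with SOX with 12.99%. The flanking windows held these states in 17.2%, 15.6% and 4.10%, so E-box alone was no more frequent at the sites than in the flanks. SOX was found in 51.5% of the 392 sites with Carm1 and Jmjd1c midpoints 0 to 31 bp apart (interval 46.6 to 56.4%), and in 40.6% of the 377 sites with midpoints 120 to 555 bp apart (35.7 to 45.6%). In the 2 groups between, SOX was found in 45.6% and 42.4%. E-box shares in the closest and farthest groups were 42.6% and 39.0%, and NFI shares 31.1% and 26.0%, each with overlapping intervals. Windows are centred on the Carm1 midpoint, so in the farthest group the Jmjd1c midpoint lies outside them. The part of this in the difference was not tested.

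Sites inside the enhancer regions carried more SOX and fewer NFI letters than three-factor distal sites outside. SOX was found in 45.1% against 37.7%, a difference of 7.34 points (Newcombe interval 2.26 to 12.3). NFI sites were found in 28.9% against 36.3%, a difference of -7.33 points (-12.3 to -2.54). For the E-box the shares were 39.6% and 43.0%, and the interval of the difference, -8.44 to 1.68 points, included 0. GGGCGG, the GC box of SP and KLF factors, was less frequent in the regions by 3.70 points (7.41% against 11.1%), and the CRE motif TGACGTCA, rare in both (0.262% and 1.05%), differed by -0.786 points (-2.18 to -0.0591). The other 15 motifs had intervals that included 0. Among sites of 250 to 400 bp width, a comparison chosen after seeing the data, the difference was 6.18 points for SOX (-0.478 to 12.6), which included 0, and -7.76 points for NFI (-14.2 to -1.51). With the first 5000 Med1 sites only, they were 5.51 (-3.49 to 14.1) and -4.81 points (-13.2 to 2.74), and both intervals included 0. With the wider part of the Carm1 and Jmjd1c lists, that of SOX did as well (6.57 points, -0.607 to 13.5).

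Within the enhancer regions, SOX was also more frequent at the three-factor sites than at the 1457 Carm1 sites without Jmjd1c or Med1. The shares were 45.1% against 37.5% (difference 7.58 points, interval 4.04 to 11.1). At the latter sites E-box and NFI shares were 38.3% and 29.7%, and their differences of 1.38 and -0.733 points had intervals around 0 (-2.12 to 4.87, and -4.00 to 2.53). Of the other motifs, the CTCF core was more frequent at the three-factor sites (8.40% against 5.77%, difference interval 0.785 to 4.48 points). CCAAT was less frequent there (20.9% against 24.7%, -6.74 to -0.713 points). Three-factor promoter sites outside the regions had fewer SOX (20.2%) and NFI (11.1%) letters than the enhancer sites and more GC boxes (37.8%). Windows at the TSS of 22347 protein-coding genes had these in 16.2%, 7.79% and 40.1%. The three-factor promoter sites had a median GC content of 60.2%.

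**Figure D5:**
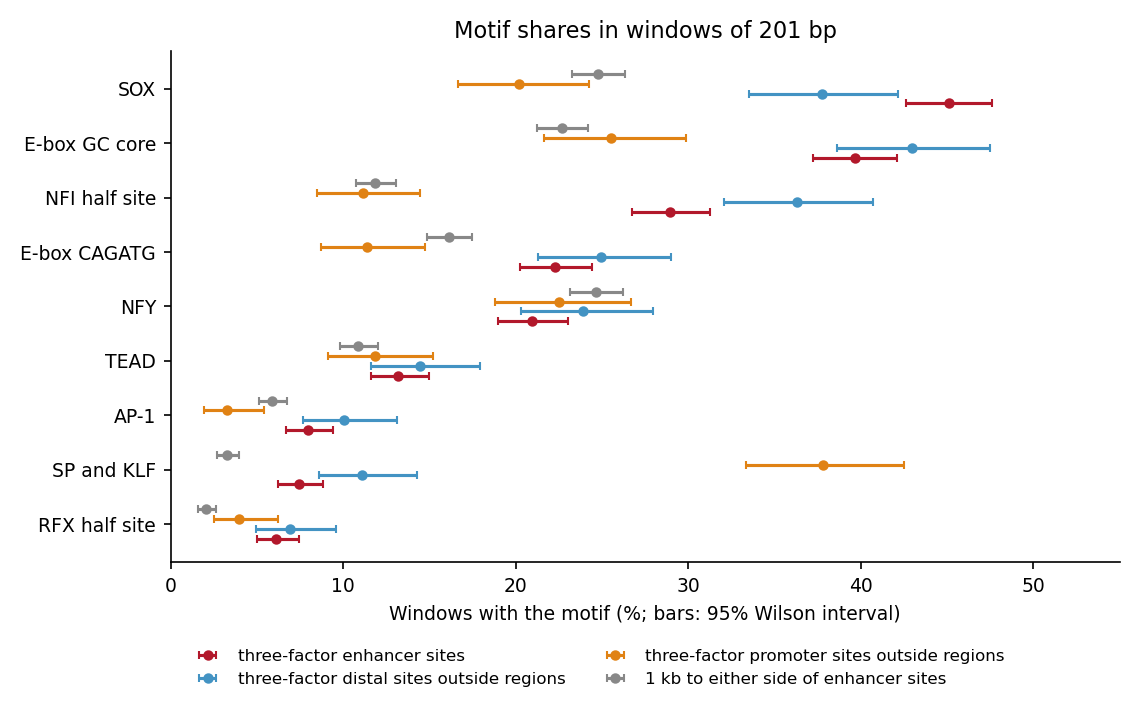
Share of windows (100 bp to each side of the midpoint) with each of 9 motifs (%), with 95% Wilson intervals, for three-factor enhancer sites (1524), three-factor distal (477) and promoter sites (431) outside the regions, and windows 1 kb to either side of the enhancer sites (3048). SOX was highest at the enhancer sites (45.1%) and NFI at the distal sites outside (36.3%).

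No difference between sites in SEs and in typical enhancers was detectable for the 3 motifs. SOX was found in 44.0% and 45.5% (difference -1.42 points, interval -7.02 to 4.25), the E-box in 42.3% and 38.7% (3.61, -1.94 to 9.24) and NFI in 27.4% and 29.5% (-2.14, -7.09 to 3.11). The intervals leave room for differences of several points in either direction. Of the 20 motifs, the GC box (10.9% against 6.15%) and CCCACCC, another letter string of KLF factors (11.4% against 7.31%), were more frequent in SEs with an interval that left out 0, and the windows in SEs had the higher GC content given above.

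Genes near these sites were counted by a TSS within 100 kb. Of 22350 protein-coding genes, 2456 (11%) had at least 1 three-factor enhancer site in that distance, and 3.01% had one in an SE. Of 150 genes matched from the gene lists described below, 40 did (26.7%). These lists were chosen with earlier results of these data known. They include 6 loci picked from those the study examined, 5 of which had a site. The share among listed genes is therefore not independent of how they were chosen. The lists were short, so each count is a description, and a site near a TSS is not shown to act on that gene.

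Genes of the oligodendrocyte lineage had sites in 5 of 10 cases. Olig1 and Olig2, basic helix-loop-helix factors of this lineage, had 5 each, all in SEs and the same 5. For Olig1 these lay 78.3 and 77.8 kb upstream and 34.6, 36.1 and 44.8 kb downstream of the TSS. The pair upstream shared 1 Med1 site and 1 Jmjd1c site in the SE of rank 214. Sox8 had 3 and Sox10 2, both SOX genes of glia, and Mbp, a myelin protein gene, had 1. Cspg4, Nkx2-2 and Pdgfra were among those with none.

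EGF and FGF signalling genes had sites in 7 of 14 cases. The Etv5 locus held 2, both in introns of the neighbouring gene Dgkg in the SE of rank 88, 78.1 and 88.1 kb upstream. Egfr had 2 in its own introns in the SE of rank 162, 80.0 and 91.8 kb downstream of the TSS. Fgfr3, an FGF receptor gene, had 2, 1 of which lay in an SE of rank 424, and Spry2, a feedback inhibitor of the pathway, had 2 in typical enhancers. Spry1, Spred1 and Fgf1 had 1 each.

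NSC and radial glia markers had sites in 5 of 15 cases, 2 of them with a site in an SE. Slc1a3, a glutamate transporter gene of radial glia and astrocytes, had 2, including 1 in its own intron 51.0 kb downstream of its TSS in the SE of rank 53. Ptprz1 had 2, at 80.9 and 41.6 kb upstream. Sox9, Fabp7 and Hes1 had 1 each in typical enhancers of rank 1353, 1937 and 2085. No site lay within 100 kb of the TSS of Sox2 or Nes, the markers the study used for these cells. None lay near the 9 neuron genes matched, the 9 genes of endothelium, microglia and mesoderm or the 7 pluripotency genes, where the 95% Wilson upper limits are 29.9, 29.9 and 35.4%. Astrocyte markers had them in 2 of 8 cases, Aldh1l1 and Aqp4. The Aldh1l1 site, 15.2 kb upstream of its TSS, is the same one that is counted for Klf15 and lies in an intron of Klf15.

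Among transcription factor families, SOX genes had sites in 4 of 10 cases (Sox8, Sox10, Sox9 and Sox4), NFI genes in 2 of 4 (Nfia and Nfib, 1 each in typical enhancers) and E-protein and Id genes in 3 of 7 (Id3, Tcf12 and Id1). POU class 3 and SALL genes had them in 3 of 8, with 2 sites at Pou3f1, 33.3 and 9.01 kb upstream and with a best rank of 46, 2 at Sall3 and 1 at Pou3f2. Of the Mediator-interacting transcription factors of the study, 4 of the 15 matched had one: Sall3, Nfia, Tcf12 and Nfib. Klf2, Klf13 and Klf15 were the 3 of 9 Kruppel-like factor genes with a site. Counts in the remaining lists were 3 of 12 Notch pathway genes (Lfng, Hes1 and Notch2), 2 of 8 SMAD signalling genes (Smad1 and Tgfb2), 1 of 10 AP-1 and immediate early genes (Fosb) and 1 of 7 cyclin and cell cycle inhibitor genes (Cdkn1a).

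Of 6 loci picked from those that the study examined, 5 had a three-factor enhancer site within 100 kb and Jag1, a Notch ligand gene, had none. Of 5 further loci that it examined, added after the values were seen, Olig2 and Sall3 had sites and Tcf4, Notch1 and Trim8 had none. Klf15 had 1 in its own intron, 8.69 kb downstream of the TSS, in a typical enhancer of rank 1233. Its Carm1 site of 482 bp (chr6:90421016-90421497) lay 88 bp from the Jmjd1c midpoint. Tulp3 had 1, likewise intronic, 5.94 kb downstream, in a typical enhancer of rank 1152. Myc had 1 at 94.1 kb downstream, in the SE of rank 29 that also holds the most tightly stacked site. Rad51c, a gene of homologous recombination, had 5 sites in introns of the neighbouring gene Tex14, 18.3 to 66.5 kb upstream, in the SEs of rank 3, 4 and 5. These 3 regions had IgG signals of 345, 575 and 510 per kb on chromosome 11, well above the median of 126 in occupied SEs, and the part of IgG there was not tested.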

How the data were processed

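ChIP-seq for Med1, Jmjd1c, Carm1 and IgG in NS-5 cells was used, with 1 sample per antibody. By the submitters' notes and the methods, reads were mapped by the authors onto mm9 using Bowtie 0.12.7, freed of duplicates (the notes name Picard 1.81) and used to call sites with MACS 1.4.2 against IgG. The methods say that replicates of a dataset were merged where there were several, and the Med1 list carries a mark that may stand for merging, but which antibodies had several is not stated. The deposited site lists hold positions only. The names of the Carm1 and Jmjd1c lists carry numbers that differ and may be p-value cutoffs, so it is unsettled whether both had the same cutoff. The deposited enhancer table gives the Med1 and IgG signal that the authors summed over each region joined by ROSE.

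Site starts were read as 0-based and are printed from 1. Region positions are as the table gives them. Chromosome lengths of NCBIM37 were checked against mm9, and genes came from GENCODE vM1. Motifs were counted on both strands, with Wilson intervals for shares and Newcombe intervals for differences. No p-value was computed, since there is 1 sample per antibody. The three-factor sites, the gene lists and the motifs were chosen with earlier results of these data known. Genes named are those of the lists with a site within 100 kb, 6 loci picked from the study (5 more were added later), the 5 regions with most sites and the sites with the 5 smallest and 5 largest summed midpoint distances. Some genes counted in the lists are not reported here by name. The gene symbols Map2, Sox1 and Zfp24 were not matched. Sox8, Nfia and other genes that stand in more than 1 list are counted in each. The counting functions were tested on simulated data. Alternatives changed the overlap rule, the lists, the chromosomes, the windows and the distance to genes. Python 3.11.15 was used with pysam 0.24.0, pandas 2.3.3, numpy 2.4.6, matplotlib 3.10.9 and scipy 1.17.1.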

Additional observations from a re-analysis of the deposited data

How the results depend on the processing

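Of 142 values under other settings, 110 stayed within the interval of the value reported (for the number of sites, within 1.5 times) and 32 moved. The E-box difference from three-factor distal sites outside the regions changed sign, from -3.34 points (-8.44 to 1.68) to 1.18 points (-3.91 to 6.14) in windows around the Jmjd1c midpoint, and both intervals included 0. No other sign changed. The differences from three-factor distal sites outside the regions ranged from 4.60 to 9.50 points for SOX and from -7.95 to -4.81 points for NFI. With at least 50% of the Carm1 site covered, the median Carm1 to Jmjd1c distance was 59 bp, 15.6% of the regions were occupied and 9.92% of genes had a site within 100 kb. With midpoints within 200 bp these were 59 bp, 16.0% and 10.3%, and 6.502% of occupied regions held 2 or more sites. With the first 5000 Med1 sites, 618 sites remained, of which 44.7% lay in SEs and 23.5% held an NFI site. Their median Carm1 width was 362.5 bp, 6.81% of regions were occupied and 5.07% of genes had a site. With the wider 50% of the Carm1 and Jmjd1c lists, 907 sites remained, 30.0% of them in SEs, with a median width of 379 bp. Then 10.4% of regions were occupied, 7.40% of these by 2 or more sites, and 6.497% of genes had a site. Without chromosomes 11 and 15, 23.8% of the sites lay in SEs, 15.9% of regions were occupied and 9.84% of genes had a site. Counting sites that share a Jmjd1c site once gave 7.44% of occupied regions with 2 or more. With the TSSs of all annotated genes, 7.55% of sites lay within 1.5 kb of a TSS. Windows of 50 bp to each side held the E-box, NFI and SOX motifs in 22.4%, 16.1% and 27.03%, and windows of 150 bp in 52.2%, 38.3% and 55.4%. Within 50 kb 5.47% of genes had a site, and 5.25% were the nearest gene of one. Shorter and longer windows hold fewer and more letters by construction, and for the other settings that moved a value the cause was not tested beyond the smaller number of sites. No paired analysis between samples was possible because each antibody has 1 sample, and no test was run. The pairing of sites with their own flanks was not used. Read depth is unknown, so no limit from depth can be given.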
